A study of Mus musculus with 16 samples.

Results

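Amyloid and tau genes were read out in the brain RNA of aged mice given the peptide adropin or its diluent. The 7 genes were App, Bace1, Psen2, Adam10, Ide, Mme and Mapt, taken by gene name from a table of 40481 genes, in which each was found. No synuclein gene is among them, so they are called the amyloid and tau genes. Male C57BL mice (C57BL/6J in the study's methods) were obtained at 18 months of age and divided into weight-matched groups of 15. One group received adropin(34-76), the part of the peptide from residue 34 to residue 76, at 90 nmol/kg/d by daily intraperitoneal injection in saline with albumin, and the other received the diluent alone. Both groups went through behavioural tests during treatment and were fasted before the brain was collected and snap frozen. RNA from 8 mice of each group was sequenced after poly-A selection, and the sources used here do not name a brain region. Mice carry the number pairs of their labels, such as adropin-treated 4_3, and what these numbers stand for is not given in the sources used here. The labels do not say whether any of the mice shared a cage or a dissection, and each mouse is taken as 1 replicate.

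The amyloid beta peptide that collects in plaques is cut from the membrane protein App. The beta-secretase Bace1 makes the first cut and the gamma-secretase, whose catalytic subunit is a presenilin such as Psen2, makes the second, while a cut by the alpha-secretase Adam10 falls inside the peptide and prevents its release. The metalloproteases Ide (insulin-degrading enzyme) and Mme (neprilysin) break the peptide down. Mapt encodes tau, a microtubule-binding protein of axons that forms the tangles of Alzheimer's disease. Enho encodes adropin itself, and the relation of each gene with Enho between mice was the second comparison. These are levels of mRNA in bulk tissue, in which fewer cells of a type and less RNA per cell cannot be told apart, and protein, cleavage and plaques were not measured here.

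Promoter sequences were taken from RefSeq (GRCm38.p6), from 250 bases before to 50 bases after an annotated start, and were found as 8 windows for 5 of the 7 genes. Those of App, Adam10 and Psen2 are shown because App and Adam10 were negatively and Psen2 positively related to Enho between mice, and Psen2 had the lowest p of the 7 between treatments. Capitals mark the letters GGGCGG (a GC box) on either strand, read as CCGCCC on the strand printed, and neighbouring matches can overlap. The App window lies at chr16:85173658-85173957 on the minus strand, that of Adam10 at chr9:70678732-70679031 on the plus strand, and that of Psen2, 1 of 2 listed for the gene and inside its annotated span, at chr1:180256251-180256550 on the minus strand.
App: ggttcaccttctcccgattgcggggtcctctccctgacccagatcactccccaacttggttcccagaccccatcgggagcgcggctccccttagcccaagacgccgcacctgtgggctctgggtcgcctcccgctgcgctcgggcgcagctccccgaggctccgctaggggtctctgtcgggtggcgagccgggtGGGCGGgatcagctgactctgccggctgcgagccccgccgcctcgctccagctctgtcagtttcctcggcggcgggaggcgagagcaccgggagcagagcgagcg
Adam10: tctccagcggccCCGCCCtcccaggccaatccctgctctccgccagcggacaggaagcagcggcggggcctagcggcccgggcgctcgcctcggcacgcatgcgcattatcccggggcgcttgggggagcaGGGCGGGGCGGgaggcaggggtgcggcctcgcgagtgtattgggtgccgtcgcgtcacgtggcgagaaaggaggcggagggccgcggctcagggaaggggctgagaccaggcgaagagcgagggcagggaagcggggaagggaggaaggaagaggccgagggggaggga
Psen2: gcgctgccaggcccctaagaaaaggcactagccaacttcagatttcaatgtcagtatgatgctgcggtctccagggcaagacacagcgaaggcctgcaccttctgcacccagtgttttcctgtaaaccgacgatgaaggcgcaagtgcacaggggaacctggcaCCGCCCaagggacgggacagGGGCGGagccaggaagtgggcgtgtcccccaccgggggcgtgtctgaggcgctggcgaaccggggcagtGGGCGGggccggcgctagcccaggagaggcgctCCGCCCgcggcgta

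The App window held 1 GC box, that of Adam10 held 3 and that of Psen2 held 4, where 35.7% of the 32851 mouse promoter windows of the same length held at least 1. GC content was 71.0% for App, 73.3% for Adam10 and 65.7% for Psen2, and the median of all windows was 52.7%. None of the 3 held TATAAA on either strand, which 13.6% of all windows did. The CCAAT motif, held by 37.4% of all windows on either strand, was found 2 times in the Adam10 window and in neither of the others. The windows not printed are the second of Psen2, which held 0 GC boxes at a GC content of 47.7%, that of Ide, with 0 GC boxes and 44.0%, and 3 of Mme, with 1, 2 and 2 GC boxes and 46.0%, 73.0% and 72.3%. These matches describe the letters in the windows only.

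Library totals ranged from 35026503 to 70314050 counts, so that the 7 genes were counted from 51 times (Mme) to 134756 times (App) in a mouse. On GRCm38 the genes lie apart, with only Bace1 and Adam10 on the same chromosome (App: chr16:84949685-85173766, minus strand; Bace1: chr9:45838580-45864399, plus; Adam10: chr9:70678997-70780229, plus; Psen2: chr1:180227004-180263438, minus; Ide: chr19:37268743-37337852, minus; Mme: chr3:63241537-63386030, plus; Mapt: chr11:104231390-104332090, plus). Of the exon bases of Bace1, 32.5% are shared with genes on the opposite strand, and whether counting used strand is not given in the sources used here, so its level is uncertain. In App the shared part was 0.869%. Markers fitted the labelled tissue: the summed level of 6 neuron markers was from 5064 to 6717 CPM in the 16 mice. The summed level of 7 choroid plexus markers was from 11.4 to 73.9 CPM with adropin and from 12.8 to 2474 with saline, the highest being saline-treated 8_3 at 2398 CPM of Ttr. All CPM given are counts scaled to a common library size by the TMM method.

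Per kilobase of merged exons, App and Mapt stood far above the other genes. The median over the 16 mice was 137.6 CPM per kilobase for App (range 108.5 to 161.8) and 107.0 for Mapt (91.7 to 139.3). Bace1 followed at 17.7, Adam10 at 13.03, Ide at 9.84, Psen2 at 4.39 and Mme at 0.283. The beta-secretase Bace1 was above the alpha-secretase Adam10 in 16 of 16 mice, although their ranges over mice overlapped. This comparison is uncertain because part of the Bace1 exons is shared with genes on the opposite strand. Mme was the lowest of the 7 in each mouse, and its range (0.124 to 0.481) did not overlap that of any other. App was above Mapt in 13 of 16 mice, and Ide was above Psen2 in 15. The ranges of App and Mapt, of Bace1 and Adam10, of Adam10 and Ide, and of Ide and Psen2 overlapped. This order depended on the length used: per kilobase of the principal transcript, an alternative chosen after seeing the data, the median was 591.6 for Mapt and 563.2 for App, with Mapt higher in 9 of 16 mice, and Ide (14.9) was above Adam10 (13.9) in 13.

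The first comparison asked whether adropin treatment changed these genes. None of the 7 changed at an adjusted p below 0.05 (edgeR's quasi-likelihood test, Benjamini-Hochberg adjustment over 14949 genes), a level that 0% of all genes tested reached, with a smallest adjusted p of 0.387. DESeq2, an alternative, called 5 of all genes and 0 of the 7, and limma-voom and limma-trend called 0 of either. At an unadjusted p below 0.05, 1 of the 7 passed, Psen2, which was lower, where 3.99% of all genes passed and 2.13% passed as lower. With a fold change above 1.5 in addition, 0 of the 7 passed, against 0.421% of all genes. The fold changes of 5 genes were above 1 and their median over the 7 was 0.10 on the log2 scale, where that of all genes tested was -0.0019.

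Choroid plexus markers differed between the same groups at unadjusted p, and other marker lists shifted too. The 2 cerebellum markers tested were lower with adropin (median log2 fold change -1.04), 1 with an unadjusted edgeR p below 0.05. All 6 oligodendrocyte markers (median -0.19) were lower, none below that level. So were 4 of 5 thalamus and midbrain markers (median -0.17), 1 below it. Neuron, astrocyte, microglia and endothelium markers were mostly higher, with 1 microglia marker below it. All 5 of the choroid plexus markers tested (Ttr, Kl, Clic6, Sostdc1 and Prlr) were lower with adropin, with a median log2 fold change of -1.31. Each had an unadjusted edgeR p below 0.05 (0.00387 to 0.0233) and an adjusted p of 0.874. As lower, 2.13% of all genes passed the unadjusted level. Clic6 was above the 1 CPM of the filter mostly in saline-treated mice. The other 2 of the 7 listed, Folr1 and Kcne2, were too low to be tested. The median of Folr1 was 0.27 CPM with adropin and 0.17 with saline, and that of Kcne2 was 0.12 and 0.23. The median of Kl was 3.63 CPM with adropin and 5.74 with saline, and that of Prlr was 1.24 and 2.11, while that of Ttr was 12.96 and 11.8. Without saline-treated 8_3 all 5 were still lower, 2 of them (Kl and Prlr) with an unadjusted edgeR p below 0.05, as 1.5% of all genes were, and the median was -0.67. The part of choroid plexus tissue in the fold changes of the 7 genes was not tested, and those obtained with the choroid plexus marker score as a covariate are given with each gene.

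**Figure D1:**
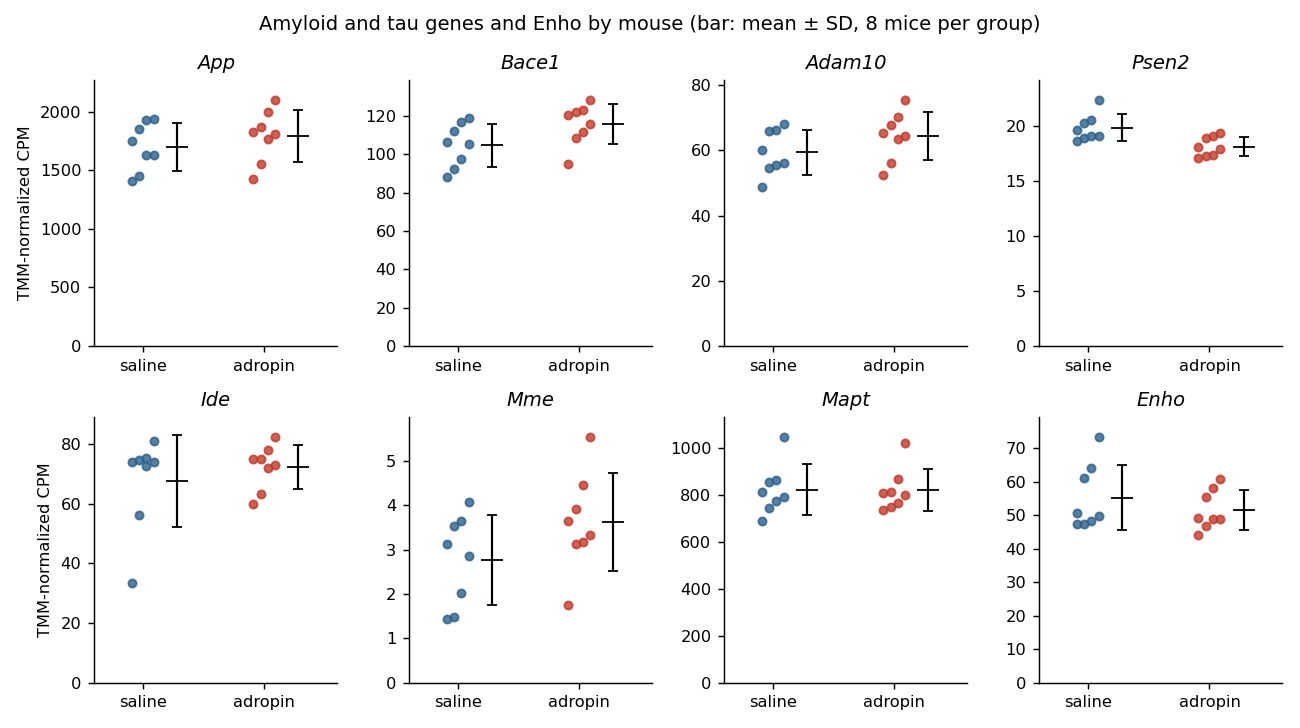
TMM-normalized CPM of the 7 genes and Enho in each mouse (points), with the mean and SD of the 8 mice of each group (bars); each panel has its own axis from 0. The groups overlap in every panel, and in the Psen2 panel each adropin point lies below the median of the saline points.

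App mRNA, which encodes the precursor, was between 1425 and 2102 CPM with adropin (median 1816) and between 1410 and 1938 with saline (median 1690). The groups overlapped, with 6 of 8 adropin-treated mice inside the saline range. The means were 1793 ± 221 and 1698 ± 204 (SD, n = 8 in each group), and the log2 fold change was 0.08 (SE 0.086, 95% confidence interval -0.10 to 0.26), with an adjusted p of 0.877 in edgeR. The sign turned, to -0.02 in each case, with the choroid plexus marker score as a covariate and with 1 surrogate variable.

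Among the enzymes that cut App, Bace1 was from 94.996 to 128.6 CPM with adropin (median 118.3) and from 88.4 to 118.9 with saline (median 105.9). In 7 of 8 adropin-treated mice Bace1 was above the saline median, and 4 of them lay above the highest saline-treated mouse. The means were 115.8 ± 10.6 and 104.8 ± 11.3, with a log2 fold change of 0.14 (SE 0.072, 95% confidence interval -0.0079 to 0.30). The unadjusted p was 0.0619 and the adjusted p was 0.874 in edgeR. Leaving out adropin-treated 4_3, saline-treated 5_3 or saline-treated 7_1 took the unadjusted edgeR p to 0.0153, 0.0304 and 0.0362, with adjusted values from 0.515 to 0.701. The log2 fold change of Bace1 was 0.06 (an unadjusted edgeR p of 0.396) with the choroid plexus marker score as a covariate and 0.07 (a p of 0.101 in edgeR) with 1 surrogate variable. With the neuron marker score as a covariate it was 0.17, with an unadjusted edgeR p of 0.0328 and an adjusted p of 0.669. Adam10 was from 52.5 to 75.6 CPM with adropin (median 64.9) and from 48.6 to 68.0 with saline (median 58.1). Again 6 of 8 treated mice lay inside the saline range, and the log2 fold change was 0.12 (SE 0.080, 95% confidence interval -0.051 to 0.29, adjusted p = 0.874 in edgeR). With the choroid plexus marker score and with 1 surrogate variable the log2 fold change of Adam10 was 0.06 and 0.04.

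Psen2, the gamma-secretase subunit, had the narrowest spread of the 7 and the lowest p. It was from 17.1 to 19.4 CPM with adropin (median 18.0) and from 18.6 to 22.4 with saline (median 19.4). Each of the 8 values with adropin was below the saline median, yet 3 of them were inside the saline range. The means were 18.1 ± 0.899 and 19.8 ± 1.23, an adropin level of 0.914 times that with saline (log2 fold change -0.13, SE 0.052, 95% confidence interval -0.24 to -0.022). The unadjusted p was 0.0209 in edgeR and 0.00482 in the two-sided exact permutation test over 12870 divisions of the mice, and the adjusted edgeR p was 0.874. Without saline-treated 2_3, which had the highest Psen2, the log2 fold change was -0.10 with an unadjusted edgeR p of 0.0520. It was -0.19 with an unadjusted p of 0.0545 when the first number of the mouse label was a block in edgeR. Only the first numbers 2, 5 and 7 hold mice of each treatment, so treatments were compared within those numbers alone. With the choroid plexus marker score as a covariate the log2 fold change of Psen2 was -0.13 and with 1 surrogate variable -0.11.

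Of the amyloid-degrading enzymes, Mme had the widest relative spread of the 7 genes (coefficient of variation 30.4% with adropin and 36.6% with saline), and Ide the next in the saline group (22.9%). Ide was from 60.0 to 82.5 CPM with adropin (median 73.8) and from 33.6 to 80.9 with saline (median 73.9). The medians were nearly the same, and the lowest value was that of saline-treated 8_3, with the next saline mouse at 56.1. The log2 fold change was 0.10 (SE 0.13, 95% confidence interval -0.18 to 0.37, adjusted p = 0.885 in edgeR) and was -0.0040 without saline-treated 8_3. With the choroid plexus marker score as a covariate the sign turned, to -0.15, with an unadjusted edgeR p of 0.0383 and an adjusted p of 1, and with 1 surrogate variable it was -0.012. Mme, at low level, was from 1.77 to 5.55 CPM with adropin (median 3.49) and from 1.43 to 4.08 with saline (median 2.996). The means were 3.62 ± 1.10 and 2.77 ± 1.01, and 7 of 8 adropin-treated mice were above the saline median while 6 were inside the saline range. Its log2 fold change of 0.39 was the highest of the 7 and the least precise (SE 0.23, 95% confidence interval -0.11 to 0.88), with an unadjusted p of 0.117 and an adjusted p of 0.874 in edgeR. Without adropin-treated 4_3, the lowest of its group, the log2 fold change of Mme was 0.49 with an unadjusted edgeR p of 0.0391, and over all mice left out in turn it was from 0.27 (an edgeR p of 0.256, without adropin-treated 2_4) to 0.49. It was 0.09 (an unadjusted edgeR p of 0.698) with the choroid plexus marker score as a covariate and 0.13 (a p of 0.404 in edgeR) with 1 surrogate variable.

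Mapt was the closest to no difference. It was from 737.5 to 1021 CPM with adropin (median 805.8) and from 690.5 to 1049 with saline (median 803.9). All 8 adropin-treated mice lay inside the saline range, and the means were 821 ± 90.7 and 823 ± 108. The log2 fold change was -0.0038 (SE 0.082, 95% confidence interval -0.18 to 0.17, adjusted p = 0.995 in edgeR), an interval that leaves out a fold change of 1.5 either way. It was 0.07 with the choroid plexus marker score as a covariate and 0.08 with 1 surrogate variable. Of the 7 intervals only that of Mme reached past a fold change of 1.5.

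**Figure D2:**
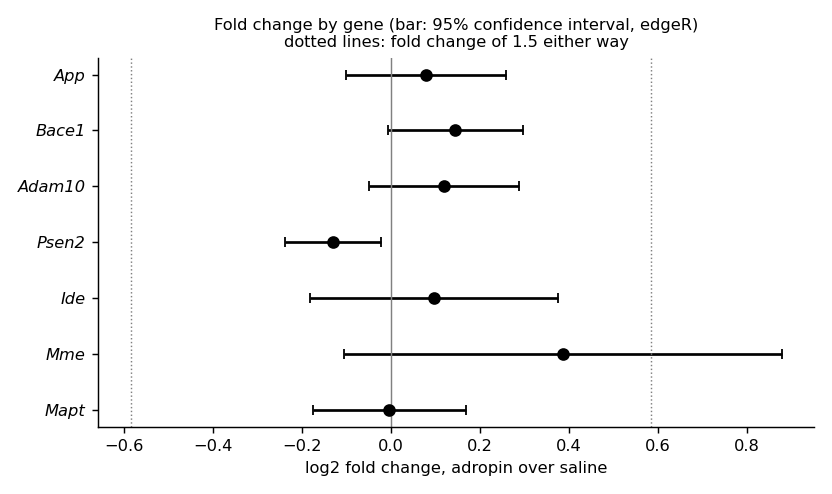
Log2 fold change of each gene (point) with its 95% confidence interval from edgeR (bar), 8 adropin-treated over 8 saline-treated mice. The interval of Psen2 (-0.24 to -0.022) is the only one that does not reach 0.

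The other genes of these pathways did not pass the adjusted test either. The lists held 60 genes, 59 of which could be tested (Plg was too low), and none had an adjusted p below 0.05 in edgeR. Beside Psen2, 1 gene had an unadjusted p below 0.05: Apbb2, which encodes an adaptor that binds the tail of App, was at 51.1 ± 6.71 CPM with adropin and 44.5 ± 4.61 with saline (log2 fold change 0.20, SE 0.082, unadjusted p = 0.0246, adjusted p = 0.874 in edgeR). As higher, 1.86% of all genes tested passed that level. The median log2 fold change was 0.12 over the 5 alpha- and beta-secretases, 0.00084 over the 7 gamma-secretase genes, 0.0013 over the 9 degrading enzymes tested, 0.11 over the 9 App adaptors and sorting receptors, 0.10 over the 5 microtubule-associated proteins and 0.04 over the 18 tau kinase and phosphatase genes. The 3 synuclein genes had a median of -0.05. Sncg, gamma-synuclein, was the lowest of the listed genes at -0.38 (SE 0.23, unadjusted p = 0.124, adjusted p = 0.874 in edgeR), at 3.29 ± 1.51 CPM with adropin and 4.25 ± 1.29 with saline, and Mme was the highest.

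The second comparison was the relation of each gene with Enho between mice, with group means subtracted so that a difference between treatments did not enter. Enho was from 44.1 to 61.0 CPM with adropin (median 49.1) and from 47.3 to 73.5 with saline (median 50.3), highest in saline-treated 8_3 and 5_4 and lowest in adropin-treated 2_1, with a log2 fold change of -0.10 between treatments (SE 0.097, adjusted p = 0.877 in edgeR). Each of the 7 genes was related to Enho at an adjusted p below 0.05, 5 of them negatively and 2 positively (Pearson's r of log2 CPM, 16 mice, 100000 permutations within groups, Benjamini-Hochberg adjustment over 14948 genes). The background was high: 32.8% of all genes passed the same level, 17.8% negatively and 15% positively. The 7 genes were chosen with earlier results of these data known, so nothing is read from 7 of 7 against that share. Of the 52 other pathway genes tested, 14 passed negatively and 6 positively.

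By Pearson's r over all 16 mice Ide was the farthest from 0, with r = -0.82 (permutation p = 0.00017, adjusted p = 0.00323) and Spearman's rho of -0.73 (permutation p = 0.00283). Bace1 had r = -0.79 (permutation p = 0.00086, adjusted p = 0.00704) and rho = -0.60 (p = 0.0224, permutation). For Mme r was -0.71 (permutation p = 0.00454, adjusted p = 0.0198) with rho = -0.57 (p = 0.0297, permutation), and for App r was -0.70 (permutation p = 0.00339, adjusted p = 0.0163) with rho = -0.58 (p = 0.0242, permutation). Adam10 had the weakest negative relation (r = -0.62, permutation p = 0.0127, adjusted p = 0.0415; rho = -0.49, permutation p = 0.0615).

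Mapt and Psen2 went the other way. Mapt had r = 0.73 (permutation p = 0.00192, adjusted p = 0.0113) and rho = 0.74 (permutation p = 0.00218), and Psen2 had r = 0.63 (permutation p = 0.0144, adjusted p = 0.0454) and rho = 0.56 (permutation p = 0.0285). By Spearman's rho, Ide and Mapt passed an adjusted p of 0.05 (0.0227 and 0.0198) and the other 5 did not (0.0775 to 0.150), where 21.6% of all genes passed. In an edgeR fit with log2 Enho beside the group, a unit of log2 Enho went with -1.77 log2 units of Mme and -1.19 of Ide. The slopes of App, Bace1 and Adam10 were between -0.61 and -0.51, that of Mapt was 0.60 and that of Psen2 was 0.24, and 6 of the 7 had an adjusted p below 0.05, the exception being Psen2 (0.107), where 35.2% of all genes did.

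**Figure D3:**
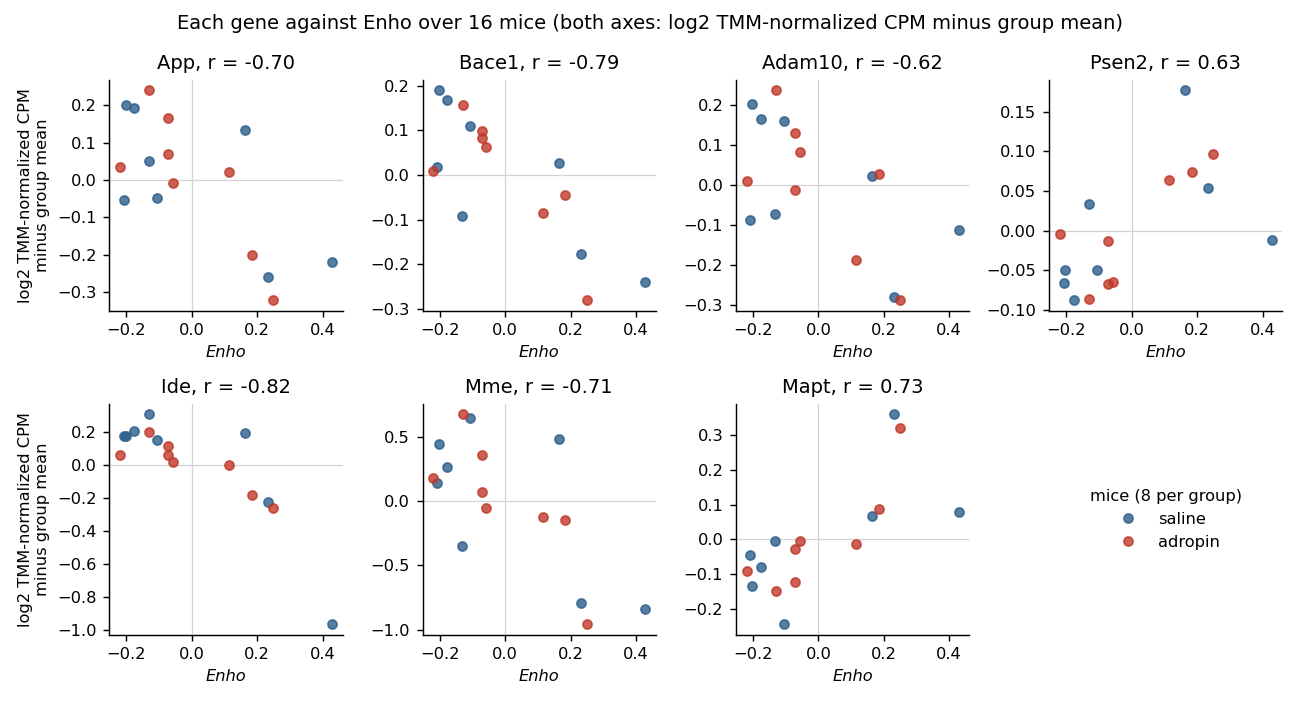
Log2 TMM-normalized CPM of each gene (vertical) against that of Enho (horizontal), both minus the group mean, for 16 mice coloured by group; r is Pearson's. The clouds slope down for App, Bace1, Adam10, Ide and Mme and up for Mapt and Psen2, and the Ide panel has 1 mouse, saline-treated 8_3, far below the rest.

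Some mice were extreme in several of these genes. Adropin-treated 4_3 was the lowest of its group in App, Bace1, Adam10, Ide and Mme and the highest in Psen2, Mapt and Enho. Adropin-treated 2_4 was the reverse, the highest in the same 5 genes and the lowest in Psen2 and Mapt. In the saline group, 8_3 was the lowest in Bace1, Ide and Mme and 5_4 was the lowest in App and Adam10 and the highest in Mapt. Without 4_3, Bace1 and Ide had an adjusted permutation p below 0.05 (0.0330 and 0.0152) and the others were from 0.0527 (Mapt) to 0.141 (Adam10), while the share of all genes called was 20% in place of 32.8%. The r without it was -0.65 for App, -0.76 for Bace1, -0.55 for Adam10, -0.81 for Ide, -0.66 for Mme, 0.69 for Mapt and 0.58 for Psen2. When each of the 16 mice was left out in turn, the call of Psen2 was lost 12 times, that of Adam10 10 times, that of Mme 2 times and those of App and Mapt 1 time each, while the calls of Bace1 and Ide were kept. The share of all genes called ranged from 20.03% to 34.0% over these 16 settings. No direction changed, and r was from 0.58 to 0.81 for Psen2, from -0.70 to -0.55 for Adam10 and from -0.81 to -0.61 for Mme.

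Without the 2 mice farthest from the median of Enho, saline-treated 8_3 and 5_4, r was -0.54 for App, -0.63 for Bace1, -0.52 for Adam10, -0.67 for Ide, -0.46 for Mme, 0.84 for Psen2 and 0.74 for Mapt. Psen2 and Mapt then had adjusted permutation p-values of 0.0301 and 0.0396, and the other 5 genes lost the call (0.0887 to 0.290), where 8.42% of all genes kept or gained it. Those 2 mice had the highest Enho, and the share of all genes called fell from 32.8%. The lost calls alone therefore do not show that these relations rested on those mice. Within the adropin group the 7 relations had the same directions, with r from -0.87 (Ide) to 0.84 (Mapt), and none had an adjusted p below 0.05 (exact permutation, 8 mice, smallest 0.0606), as 0.455% of all genes did, and 6 had an unadjusted exact permutation p below 0.05, as 29.6% of all genes did. Within the saline group r was from -0.84 (Ide) to 0.68 (Mapt), again with none below 0.05 (exact permutation, smallest adjusted p 0.107), which 0% of all genes reached, and 2 had an unadjusted exact permutation p below 0.05, as 28.3% of all genes did.

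**Figure D4:**
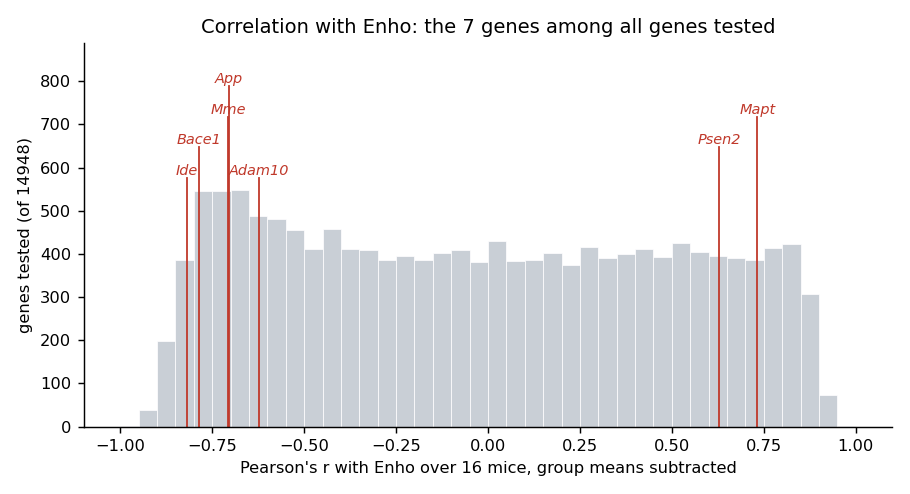
Number of genes (vertical) by Pearson's r with Enho over 16 mice (horizontal, bins of 0.05), with the 7 genes marked by lines. Values of r as far from 0 as those of the 7 are common over all 14948 genes, of which 32.8% had an adjusted p below 0.05.

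The members followed a pattern shared by much of the transcriptome. The first principal component of log2 CPM held 34.1% of the variance between mice. Its r was -0.95 with App, -0.87 with Bace1, -0.85 with Mme, -0.80 with Adam10, -0.70 with Ide, 0.88 with Mapt and 0.54 with Psen2, and 0.81 with Enho. All but Psen2 were called at an adjusted permutation p below 0.05 (largest of the 6, 0.0153; Psen2, 0.0812), where 45.8% of all genes were. A mean score of 80 cytosolic ribosomal protein genes, chosen after seeing the data, had r = 0.89 with Enho (permutation p = 0.00012) and 0.91 with Mapt (p = 1e-05, the smallest 100000 permutations can give). Again 6 of the 7 genes were called with this score and Psen2 was not (adjusted permutation p = 0.0739), against 42.7% of all genes.

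After the first principal component was removed from each gene and from Enho, also an alternative chosen after seeing the data, r with Enho was 0.32 for App, -0.27 for Bace1, 0.07 for Adam10, -0.60 for Ide, -0.07 for Mme, 0.38 for Psen2 and 0.07 for Mapt. None of the 7 was then called (smallest adjusted permutation p 0.264, Ide, the 1 gene of the 7 with an unadjusted p below 0.05, against 18.1% of all genes), and 0.221% of all genes were. With the ribosomal protein score removed instead, none of the 7 and 0% of all genes were called, 0 of the 7 and 7.74% of all genes had an unadjusted p below 0.05, and Ide again had the largest r in size (-0.50, permutation p = 0.0716). What lies behind the shared pattern was not tested.

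Exon length differed along the same axis. Across the 14948 genes, Spearman's rho of merged exon length and r with Enho was -0.52, a description over genes that share the same 16 libraries and are not independent. Genes called negative had a median of 7187 exon bases and genes called positive had 2369, where the median of all was 4322. App (12996 bases), Mme (11542), Ide (7506), Bace1 (6348) and Adam10 (4913) were negative, and Mapt (7531) and Psen2 (4332) were positive. The part of length in these relations was not tested.

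Between themselves most of the genes were related, and much of the transcriptome was related to them. Among App, Bace1, Adam10, Ide and Mme the 10 pairs had r from 0.49 (Adam10 and Ide) to 0.92 (Bace1 and Mme). Mapt had r from -0.85 (Mme) to -0.52 (Ide) with those 5, and Psen2 from -0.60 (Adam10) to -0.20 (Ide), while Mapt and Psen2 had r = 0.64. The pairs of Ide with Adam10 (permutation p = 0.0504) and with Mapt (permutation p = 0.0840) were not called, nor was any pair of Psen2 with those 5. With each gene in turn as the reference, the number of the other 6 called at an adjusted permutation p below 0.05 was 5 for App, Bace1, Mme and Mapt, 4 for Adam10, 3 for Ide and 0 for Psen2. Of all genes, 42.1% were called with App, 36.2% with Mme, 38% with Mapt, 33.5% with Adam10, 19.2% with Ide and 0% with Psen2. Taking Bace1 as the reference, 5 of the other 6 genes were related to it at an adjusted permutation p below 0.05, as were 39.1% of all genes. Those were Mme (r = 0.92, rho = 0.87, permutation p = 2e-05), Adam10 (r = 0.90, rho = 0.91, p = 1e-05, the smallest permutation can give), App (r = 0.85, rho = 0.80, permutation p = 8e-05), Mapt (r = -0.81, rho = -0.82, permutation p = 0.00041) and Ide (r = 0.71, rho = 0.64, permutation p = 0.00043). The mRNAs of the alpha- and the beta-secretase thus varied together between mice (r = 0.92 without the 2 mice farthest from the median of Bace1).

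**Figure D5:**
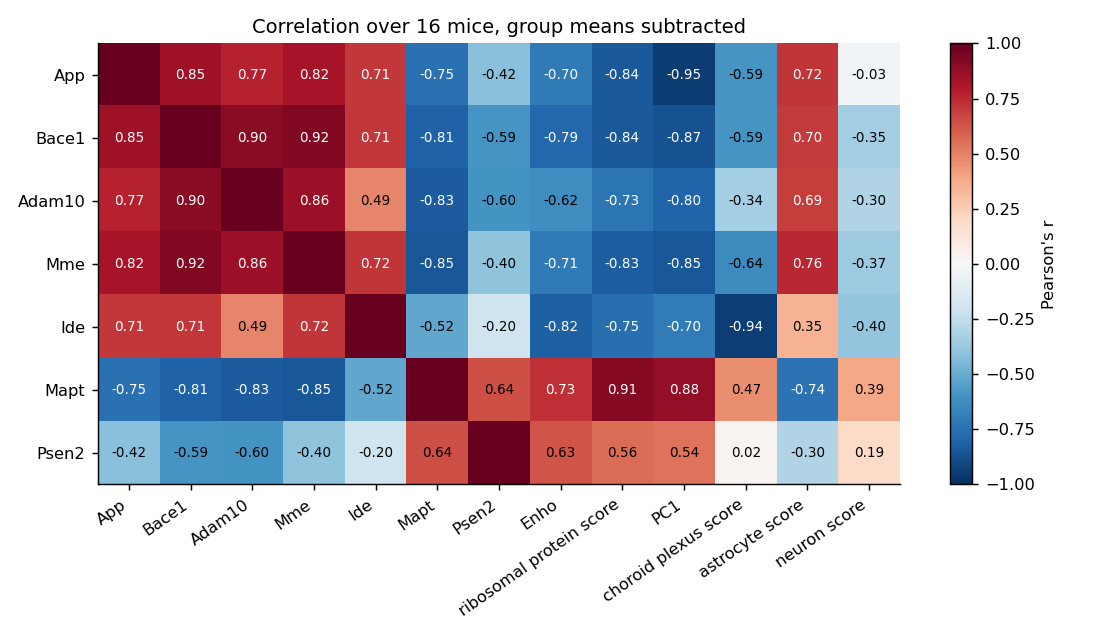
Pearson's r over 16 mice, group means subtracted, between the 7 genes (rows) and each other, Enho, the ribosomal protein score, the first principal component (PC1) and the choroid plexus, astrocyte and neuron marker scores (columns); cells of a gene with itself carry no number. The r of App, Bace1, Adam10, Mme and Ide with each other is from 0.49 to 0.92, and that of Mapt and of Psen2 with these 5 is below 0, not called for any pair of Psen2 nor for Ide with Adam10 or Mapt.

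Ide had low r with the choroid plexus and cerebellum marker scores. Its r with the choroid plexus marker score was -0.94 (permutation p = 0.00089, adjusted p = 0.136; rho = -0.71, permutation p = 0.00885), lower than that of any other gene tested, and -0.58 without the 2 mice farthest from the median of that score. With the cerebellum score r was -0.82 (permutation p = 0.0737, adjusted p = 0.818; rho = -0.44, permutation p = 0.146) and 0.31 without the 2 farthest mice. Enho had r = 0.73 with the choroid plexus score (permutation p = 0.00477, adjusted p = 0.136; rho = 0.62, permutation p = 0.0147) and 0.30 without the 2 farthest mice. The r of App, Bace1, Adam10 and Mme with this score was from -0.64 to -0.34, and no gene of all tested (0%) had an adjusted p below 0.05 with it. Saline-treated 8_3, with 33.6 CPM of Ide, had the highest choroid plexus score (2.86, a mean z-score) and the highest cerebellum score (3.34) of the 16 mice. With the choroid plexus score removed, r with Enho was -0.56 for Ide and 0.90 for Psen2, and of the 7 genes only Psen2 was called (adjusted permutation p = 0.0194), where 7.11% of all genes were. The part of choroid plexus or cerebellum tissue in the Ide values was not tested.

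Astrocyte markers moved with 5 of the 7 genes. The score of 5 astrocyte markers had r = 0.76 with Mme, 0.72 with App, 0.70 with Bace1, 0.69 with Adam10 and -0.74 with Mapt, each with an adjusted permutation p below 0.05 (0.0272 to 0.0372), where 19.9% of all genes passed. Spearman's rho of these 5 was from 0.53 to 0.70 in size. Its unadjusted permutation p was from 0.00605 (Mme) to 0.0477 (App), with no adjusted permutation p below 0.05. The share of all genes by rho is not given for this score. Without the 2 mice farthest from the median of the score, Pearson's r was 0.54 for Mme, 0.48 for App and 0.47 for Bace1. It was 0.39 for Adam10 and -0.35 for Mapt, so all 5 were smaller in size with the same signs. No p-value or share of all genes was computed for this setting, and how far the relations rested on those mice was not tested. The astrocyte markers summed to 697 to 956 CPM with adropin and 649 to 937 with saline, and their score had r = -0.34 with Enho (permutation p = 0.222). The part of astrocytes in the values of these genes was not tested. By Spearman's rho, Mme had an unadjusted permutation p of 0.0338 with the microglia score (rho = 0.57, adjusted permutation p = 0.611). For the oligodendrocyte, microglia, endothelium, striatum, cerebellum and thalamus and midbrain scores, 0 of the 7 genes passed by Pearson's r. The level was a permutation p below 0.05, adjusted or not. Unadjusted, the share of all genes that passed was 15.5%, 9.04%, 12.4%, 2.72%, 3.95% and 12.6% in the same order, and adjusted it was 2.63% for oligodendrocytes and 0% for the others, so nothing is read from the 0 of 7. The r of the neuron marker score was from -0.40 (Ide) to 0.39 (Mapt), with no adjusted permutation p below 0.05 for any of the 7, and that of log2 library total was from -0.41 (Mapt) to 0.51 (Adam10), again with none below it. Unadjusted, 0 of the 7 passed for neurons, as 13.5% of all genes did, and 1 for the library total, Adam10 (permutation p = 0.0474), as 6.51% of all genes did. At the adjusted level the shares of all genes were 0.12% and 0%.

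The genes most like each member over the 16 mice, by r with group means subtracted, were Opa1 (0.98) and Tbc1d14 (0.98) for App and Tln2 (0.98), Aff4 (0.98) and Prickle2 (0.97) for Bace1. For Adam10 they were Cbx5 (0.95), Cul4b (0.95) and Aff4 (0.95), for Mme Ipo7 (0.96), Washc5 (0.95) and Clvs1 (0.95), and for Ide Klf3 (0.90), Dhx57 (0.89) and Mark4 (0.89). For Mapt they were Cox10, a factor of respiratory chain assembly (0.97), and the ribosomal protein genes Rpl37 (0.96) and Rps16 (0.96). Psen2 had no neighbour as close, with Abhd11 (0.82), Rnaseh1 (0.81) and Zdhhc4 (0.79).

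In the pathway lists, 19 of 59 genes tested were negatively and 8 positively related to Enho at an adjusted permutation p below 0.05. Without the 7 members these numbers were 14 negative and 6 positive of 52. The alpha- and beta-secretases gave 4 negative and 1 positive of 5, the App adaptors and sorting receptors 4 negative and 0 positive of 9, and the tau kinases and phosphatase subunits 6 negative and 2 positive of 18. Of the 3 synuclein genes, 2 were positive and 0 negative. The gamma-secretase genes gave 1 negative and 2 positive of 7, the amyloid-degrading enzymes 2 negative and 0 positive of 9, the App family 1 negative and 0 positive of 3, and the microtubule-associated proteins 1 negative and 1 positive of 5. All lists were chosen with earlier results of these data known, and the share of all genes called was 32.8%.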

How the data were processed

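RNA from the brains of 16 mice was sequenced as paired ends. The authors aligned reads to the Ensembl release 76 assembly (GRCm38) with STAR and deposited raw counts of unambiguous reads per gene from featureCounts, together with CPM scaled to each library's total. Of 40757 entries, 276 repeats were dropped. TMM factors were computed over all genes. Genes above 1 CPM in 7 or more mice were tested, without 355 ribosomal RNA genes, by edgeR 4.0.16 (R 4.3.3; quasi-likelihood, Benjamini-Hochberg over 14949 genes, no covariate). Correlations used log2 TMM-normalized CPM (prior count 2), group means subtracted, with 100000 permutations of mice within groups, or all 40320 orders within a group of 8. Marker scores are mean z-scores. Exon lengths came from GENCODE vM21. On simulated counts for this comparison (14949 genes, 200 changed), edgeR recovered 98 of 100 genes changed by 1 on the log2 scale. It recovered 84 of 100 changed by 0.585, with 9 false calls in all. Changed genes were taken from levels above that of Mme, and genes were drawn independently of each other. The planted changes were larger than the estimates of the 7 genes, so recovery of changes of their size was not tested.

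The members and lists were chosen with earlier results of these data known. Named genes are the 7 members, Enho, the 3 genes with the highest r with each member (1 of them is not reported here), and listed pathway genes with an unadjusted p below 0.05 or the lowest or highest fold change. Alternatives were limma-voom, limma-trend (limma 3.58.1; log2 of deposited CPM, pseudocount 1), DESeq2 1.42.0, other size factors, filters and prior counts, label numbers as blocks, marker scores, 1 surrogate variable (sva 3.50.0) and each mouse left out. Removal of the first principal component or of the ribosomal protein score, and principal transcript lengths, were chosen after seeing the data. P-values measure the spread between these mice.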

Additional observations from a re-analysis of the deposited data

Results flagged for a closer look

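Of 16 sets of 8 values (the 7 genes and Enho in each group), 1 had a mouse that stood apart by Dixon's ratio. Mapt was at 1021 CPM in adropin-treated 4_3, with the next mouse of the group at 868.1, a gap of 0.539 of the group's range where 0.526 is the 95% critical value. Chance gives such a gap in about 1 in 20 groups. The same mouse had the lowest App, Bace1, Adam10, Ide and Mme and the highest Psen2 and Enho of its group, and its value on the first principal component (29.2) was the highest of its group. Without it the log2 fold change of Mapt was -0.055.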

How the results depend on the processing

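No member had an adjusted p below 0.05 in any of the 30 alternatives of the treatment comparison. The number with an unadjusted p below 0.05 was 1 (3.99% of all genes), and became 0 with a block for the first label number (2.19%) and 2 with the choroid plexus (2.29%) or the neuron marker score (6.35%) as a covariate. With each mouse left out it ranged from 0 (without saline-treated 2_3, 3.73%) to 3 (without adropin-treated 4_3, 9.59%), and was 2 without saline-treated 5_3 (6.38%) or 7_1 (6.15%), so that in these last 3 settings the share of all genes was higher too. Of 210 fold changes recomputed, 14 changed sign. With 1 surrogate variable the log2 fold change was -0.021 for App, -0.012 for Ide and 0.082 for Mapt, and with the choroid plexus score as a covariate -0.021 for App, -0.15 for Ide and 0.074 for Mapt; these covariates also took Bace1, Adam10 and Mme closer to 0 without a change of sign. With each mouse left out Ide ranged from -0.0040 to 0.14 and Mapt from -0.055 to 0.054. The cause was not tested.

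The number of members called with Enho, 7, was 2 by Spearman's rho, 2 without the 2 mice farthest from the median, 1 with the choroid plexus score removed, 0 within either group, 0 with the first principal component or the ribosomal protein score removed, and from 2 to 7 with each mouse left out. With the first principal component removed r changed sign for App (0.32) and Adam10 (0.067), and with the ribosomal protein score removed for App (0.16), Adam10 (0.094), Mme (0.12) and Mapt (-0.40). The other alternatives left 6 or 7 members called, where from 32.75% to 37.49% of all genes were called. No paired analysis was possible. The replicate labels of the groups share no pair of numbers, and what each number stands for is not given. Blocks for the first or the second number were run as covariates only, and only the first numbers 2, 5 and 7 hold mice of each treatment. Mme had the fewest counts of the 7 (51 to 301 per mouse), and the overlap of Bace1 with genes on the other strand was not resolved.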
